A study of Homo sapiens with 24 samples.

Results

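The genes described here are 42 components of the DNA replication machinery, chosen by name out of the 58735 genes in the expression table and measured in 2 leukaemia cell lines under 4 conditions. They cover origin recognition (ORC1, ORC2, ORC3, ORC5, ORC6), helicase loading (CDC6, CDT1 and the inhibitor GMNN), the replicative helicase (MCM2 to MCM7), its activation (CDC45, GINS1 to GINS4, MCM10, CDC7, DBF4), the 3 replicative polymerases with primase, the sliding clamp PCNA and its loader RFC1 to RFC5, flap removal and ligation (FEN1, LIG1), and the single-strand binding proteins RPA1 to RPA3. The study profiled RNA from Nalm6 and Sem, 2 established human cell lines grown from acute lymphoblastic leukaemia of B-cell precursors, with 3 libraries in each of 8 groups. Each line was left untreated or was treated for 24 h with ibrutinib at 10 µM, with asparaginase, or with the 2 drugs together. Ibrutinib is a covalent inhibitor of Bruton tyrosine kinase, a kinase downstream of the B-cell receptor, and asparaginase is an enzyme that removes extracellular asparagine and is used against this leukaemia. The asparaginase dose is given as 1 IU/ml in the sample characteristics, while another passage of the labels gives 0.5 IU/ml. No label says when untreated cells were harvested. The labels describe no separate cultures. Every p-value below rests on the spread between libraries of the same group, pooled over all groups in the fit, and this spread may be technical.

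Replication of a chromosome begins when the origin recognition complex, CDC6 and CDT1 load the ring-shaped MCM2 to MCM7 helicase onto DNA in G1 phase. In S phase the DBF4-dependent kinase CDC7 and cyclin-dependent kinases recruit CDC45 and the GINS complex to the ring, and the moving helicase is followed by primase with polymerase alpha, polymerases delta and epsilon, the PCNA clamp with its loader RFC, and RPA on single-stranded DNA. Transcription of many of these genes is driven by E2F factors as cells enter the cycle, so proliferating leukaemia cells carry high levels of their transcripts. In bulk RNA, fewer cells in S phase and less of a transcript per cell cannot be told apart.

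Library depth was similar throughout, at 15 to 18.1 M reads per library recovered from the table, with a median of 16.2 M reads, and 11874 to 12850 genes per library reached 1 FPKM. FPKM counts fragments per kilobase of gene, scaled to library size, a level that can be compared between genes. Libraries of a group correlated at 0.983 to 0.99. The lines carried the markers of their labels: 9 of 9 B-cell precursor markers reached a mean of 1 FPKM in Nalm6 and 7 of 9 in Sem, while HOXA9, HOXA10 and MEIS1, associated with KMT2A rearrangement, were at 0 in every Nalm6 group and were all above 1 FPKM in Sem. Among markers of other cells, NKG7 of 6 T and NK markers reached 1 FPKM, at most 2 of 6 myeloid markers did, and PECAM1 in Sem was the only 1 of 6 erythroid and stromal markers. The summed myeloid markers lay between 6.82 and 16.5 FPKM in Nalm6 libraries and between 2.59 and 6.87 FPKM in Sem libraries. In Nalm6 the second untreated, first asparaginase and first combination libraries stood apart from their groups by a dependence of expression on GC content. This dependence is given beside CDT1, POLD1, POLD2 and RPA3, which are among the members whose values moved with it.

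Promoter windows, from 250 bases before to 50 bases after the RefSeq start (GRCh38.p14), were found for 36 of the 42 genes. Of 35116 windows in all, only the first listed for each gene was used. MCM4, MCM5, GINS4, POLD3, RPA2 and RPA3 are named only. E2F-type sites were searched on both strands as TTTCCCGC, TTTCGCGC, TTTGCCGC and TTTGGCGC, and 17 of the 36 windows (47.2%) held at least 1, against 908 of 27305 promoter windows of the same length in the genome (3.33%). At least 2 matches, with overlapping ones counted separately, were present in MCM2, MCM3, MCM6 and MCM7, and in 0.154% of all windows. The 2 matches of MCM2 overlap on opposite strands, and the 4 of MCM6 overlap in such pairs. CCAAT was found in 55.6% of the members' windows and 35.7% of all, and TTTGAA or TTCGAA in 5.56% (MCM6 and DBF4) and 16.6%. The median GC content was 65.3% in the members and 58.3% over all windows. These are descriptions of letters, and the binding of any factor was not measured. The windows below are those of the 4 helicase genes with repeated matches, of CDC6 and PCNA (the member with the lowest percentage of its untreated level in Nalm6 and the most abundant member), and of RFC5 and CDT1, which rose in Sem. They are, in the order printed, MCM2 at chr3:127598161-127598460 on the plus strand, MCM3 at chr6:52284693-52284992 on the minus strand, MCM6 at chr2:135876394-135876693 on the minus strand, MCM7 at chr7:100101348-100101647 on the minus strand, CDC6 at chr17:40287629-40287928 on the plus strand, PCNA at chr20:5126573-5126872 on the minus strand, RFC5 at chr12:118016453-118016752 on the plus strand and CDT1 at chr16:88803539-88803838 on the plus strand. Each is printed 5′ to 3′ on the strand of the gene, in lower case with E2F-type matches in capitals. Matches that start 4 bases apart overlap and appear as a single run of capitals, and RFC5 has no match.
MCM2: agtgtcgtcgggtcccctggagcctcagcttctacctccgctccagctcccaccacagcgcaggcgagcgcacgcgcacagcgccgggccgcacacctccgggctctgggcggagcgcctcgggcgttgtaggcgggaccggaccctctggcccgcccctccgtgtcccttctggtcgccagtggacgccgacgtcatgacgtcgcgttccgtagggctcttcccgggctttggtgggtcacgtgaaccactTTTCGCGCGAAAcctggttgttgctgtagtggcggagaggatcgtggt
MCM3: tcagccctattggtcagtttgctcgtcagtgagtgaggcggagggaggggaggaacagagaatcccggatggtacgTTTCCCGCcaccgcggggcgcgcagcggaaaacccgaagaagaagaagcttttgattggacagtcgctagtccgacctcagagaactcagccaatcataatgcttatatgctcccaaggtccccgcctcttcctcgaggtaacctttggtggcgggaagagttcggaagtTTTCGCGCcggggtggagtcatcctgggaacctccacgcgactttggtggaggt
MCM6: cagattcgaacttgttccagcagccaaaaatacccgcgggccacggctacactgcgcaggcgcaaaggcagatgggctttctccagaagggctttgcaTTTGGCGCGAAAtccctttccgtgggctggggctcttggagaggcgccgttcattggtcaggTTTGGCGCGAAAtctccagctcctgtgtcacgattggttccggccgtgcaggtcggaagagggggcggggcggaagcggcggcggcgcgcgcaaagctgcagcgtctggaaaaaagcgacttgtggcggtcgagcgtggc
MCM7: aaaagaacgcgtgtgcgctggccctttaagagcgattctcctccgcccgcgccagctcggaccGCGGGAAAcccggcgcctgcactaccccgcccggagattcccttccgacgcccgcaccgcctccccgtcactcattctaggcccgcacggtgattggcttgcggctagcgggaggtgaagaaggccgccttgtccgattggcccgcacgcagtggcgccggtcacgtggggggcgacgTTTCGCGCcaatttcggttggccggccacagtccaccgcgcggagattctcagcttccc
CDC6: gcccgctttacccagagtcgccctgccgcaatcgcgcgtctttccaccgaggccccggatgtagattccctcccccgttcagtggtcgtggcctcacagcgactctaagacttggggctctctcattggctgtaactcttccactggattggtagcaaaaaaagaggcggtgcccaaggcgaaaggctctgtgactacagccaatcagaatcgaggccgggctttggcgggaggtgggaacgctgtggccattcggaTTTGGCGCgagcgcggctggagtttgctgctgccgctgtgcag
PCNA: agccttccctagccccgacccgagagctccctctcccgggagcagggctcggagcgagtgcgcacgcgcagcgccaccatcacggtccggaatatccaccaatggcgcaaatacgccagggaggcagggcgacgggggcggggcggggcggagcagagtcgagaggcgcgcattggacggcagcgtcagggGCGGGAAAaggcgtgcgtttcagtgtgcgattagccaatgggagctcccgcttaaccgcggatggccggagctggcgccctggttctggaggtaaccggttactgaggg
RFC5: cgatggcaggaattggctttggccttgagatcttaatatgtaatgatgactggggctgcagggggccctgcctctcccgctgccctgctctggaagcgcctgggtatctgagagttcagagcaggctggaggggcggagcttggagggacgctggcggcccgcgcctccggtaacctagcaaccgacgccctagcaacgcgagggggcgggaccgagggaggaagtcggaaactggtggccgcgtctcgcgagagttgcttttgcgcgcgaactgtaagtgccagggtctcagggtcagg
CDT1: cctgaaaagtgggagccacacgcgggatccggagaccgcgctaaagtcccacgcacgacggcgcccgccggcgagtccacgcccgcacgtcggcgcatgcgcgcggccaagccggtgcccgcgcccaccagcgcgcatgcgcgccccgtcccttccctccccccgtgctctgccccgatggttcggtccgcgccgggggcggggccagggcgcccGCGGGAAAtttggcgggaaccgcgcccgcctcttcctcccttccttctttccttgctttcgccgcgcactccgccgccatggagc

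In untreated cells PCNA was the most abundant member in both lines, at 356 ± 14.7 FPKM (SD, n = 3) in Nalm6 and 285 ± 18.9 FPKM in Sem, and POLA2, the accessory subunit of polymerase alpha, was the lowest, at 3.05 ± 0.281 and 3.08 ± 0.349 FPKM. With differences tested by limma on log2(FPKM + 1) and Benjamini-Hochberg adjustment over all 15116 genes expressed in the 2 lines, 16 members were higher and 11 lower in Sem than in Nalm6, against 34% and 31.8% of all genes tested. GINS2, a subunit of the GINS complex, had the largest excess in Sem, at a log2 difference of 1.40 ± 0.05 (SE, adjusted p = 3.43e-15 by limma). RPA3, the smallest RPA subunit, had the largest deficit, at -0.88 ± 0.13 (limma adjusted p = 4.49e-06).

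The replication genes fell together in asparaginase-treated Nalm6 and further with the combination, fell less in Sem, and changed little in Nalm6 given ibrutinib alone. In Nalm6 the median level of the 42 genes was 61.8% of untreated with asparaginase and 49.3% with the combination, where 22 genes lay under 50% of their untreated mean, and 92.9% with ibrutinib. In Sem the medians were 86.8%, 74.7% and 84.1% in the same order. CDC6 kept the smallest share in Nalm6, at 39.1% with asparaginase and 29.4% with the combination, and CDC45 in Sem with the combination, at 59.6%.

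Counted by the test, asparaginase lowered 39 of the 42 genes in Nalm6 and raised 0, where 28.1% of the 13237 genes tested were lower and 28.2% higher. The combination lowered 41 and raised 0, against 31.3% lower and 32.4% higher, and RPA3 did not pass except without combination 1 or without the libraries that stood apart. Ibrutinib lowered 5 (MCM7, CDC45, PCNA, RFC5 and FEN1) and raised 0, against 7.46% and 4.99%. The members' median log2 change was -0.66 with asparaginase, -0.96 with the combination and -0.10 with ibrutinib, beside 0.02, 0.02 and -0.01 over all genes tested. Against asparaginase alone, the combination lowered 29 of the 42 genes and raised 0 (12% and 9.8% of all genes), with a median of -0.33. Relative to ibrutinib alone, the combination lowered 41 and raised 0 (27.7% and 29.5%), and CDT1 did not pass. Mitochondrial reads moved with the treatment, at 3.58 to 3.91% of the total in the 6 Nalm6 libraries without asparaginase and 4.3 to 4.81% in the 6 with it, against 2.35 to 2.81% in all Sem libraries, and their part in the changes was not tested. The 5 calls with ibrutinib were the least stable, falling to 0 with quantile scaling and to 1 without untreated 3, ibrutinib 1 or ibrutinib 3, and rising to 13 without the libraries that stood apart.

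In Sem, ibrutinib lowered 33 of the 42 genes and raised RFC5, where 21.3% of the 13417 genes tested were lower and 20.3% higher. Asparaginase lowered 27 and raised 0, against 15.1% and 11.4%. The combination lowered 35 and raised 3 (CDT1, PRIM1 and RFC5), against 26.3% and 26.6%, and ORC2, ORC3, POLA2 and RPA3 did not pass. The median log2 changes of the members were -0.24, -0.19 and -0.40, beside 0.011, -0.0036 and 0.022 over all genes tested. Against asparaginase alone, the combination lowered 28 members and raised 3 (19.8% and 18.6% of all genes). Against ibrutinib alone it lowered 18 and raised CDT1 (7.3% and 4.81%), and that count of 18 fell to 9 without ibrutinib 2, to 10 without ibrutinib 3 or combination 3, and to 11 without combination 1. The counts with the single drugs depended on the scaling, at 20 lower and 3 higher with ibrutinib after quantile scaling and 15 lower and 2 higher with asparaginase after TPM or quantile scaling.

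**Figure D1:**
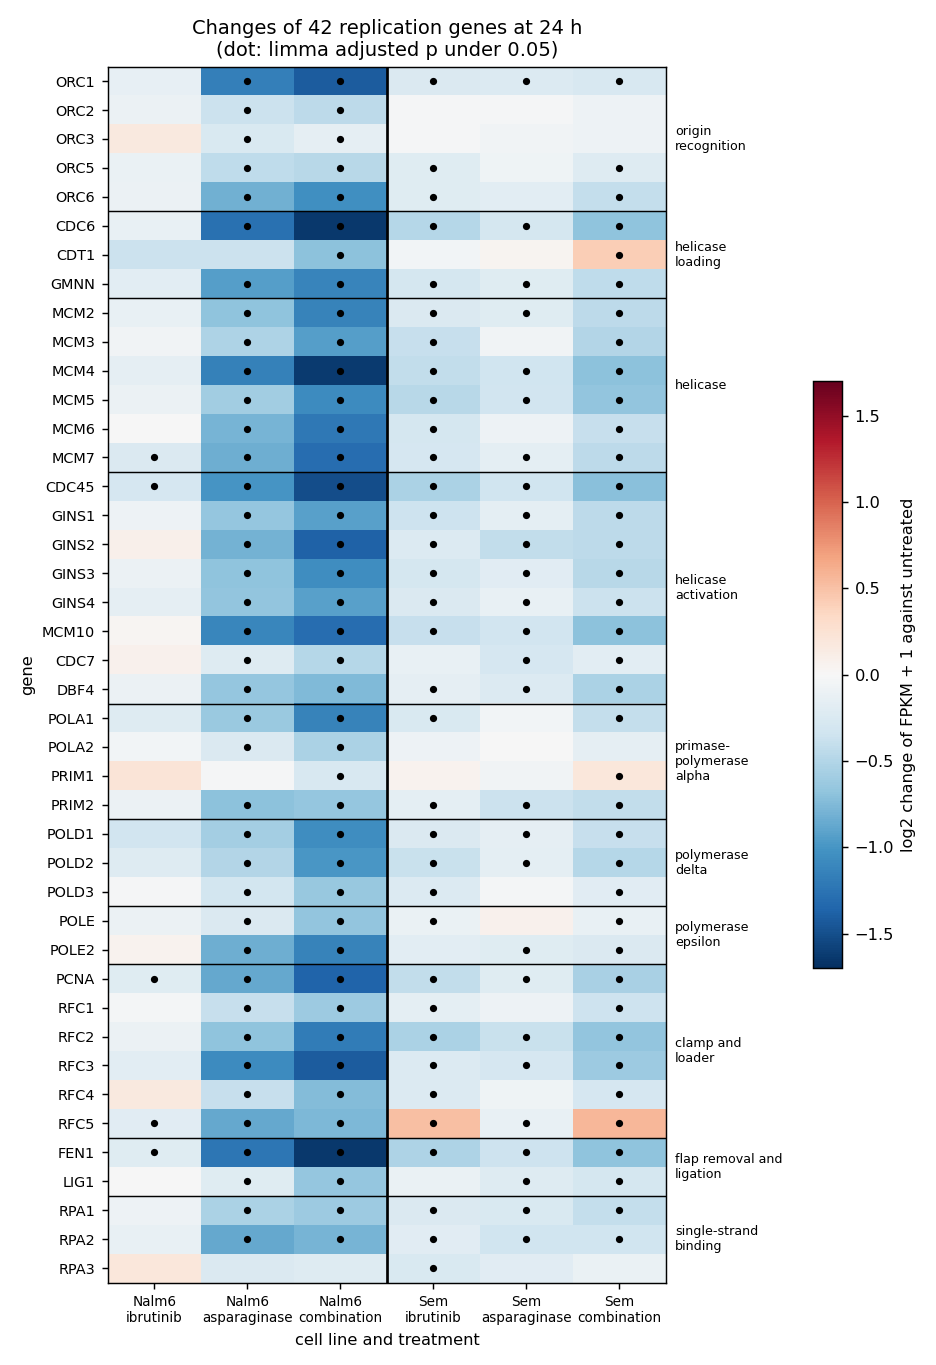
Heat map of the log2 change in FPKM + 1 against untreated for the 42 genes (rows, by role) with ibrutinib, asparaginase and the combination in Nalm6 and in Sem (6 columns), with a dot where the limma adjusted p was under 0.05. The Nalm6 asparaginase and combination columns are lower almost throughout, with dots in 39 and 41 rows, and RFC5, CDT1 and PRIM1 are the 3 rows that rise with the combination in Sem.

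The libraries themselves separated in the same way. In Nalm6, all 3 asparaginase libraries lay below all 3 untreated ones for 39 members, and all 3 combination libraries for 40, beside 30.4% and 31.9% of all genes tested. With ibrutinib, 19 members lay wholly below and 2 wholly above untreated (19.9% and 15.5% of all genes). In Sem, 34 members lay wholly below untreated with ibrutinib and 1 wholly above (25% and 25.3%), 29 below and 0 above with asparaginase (20.7% and 18.2%), and 36 below and 3 above with the combination (28.5% and 30.3%).

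**Figure D2:**
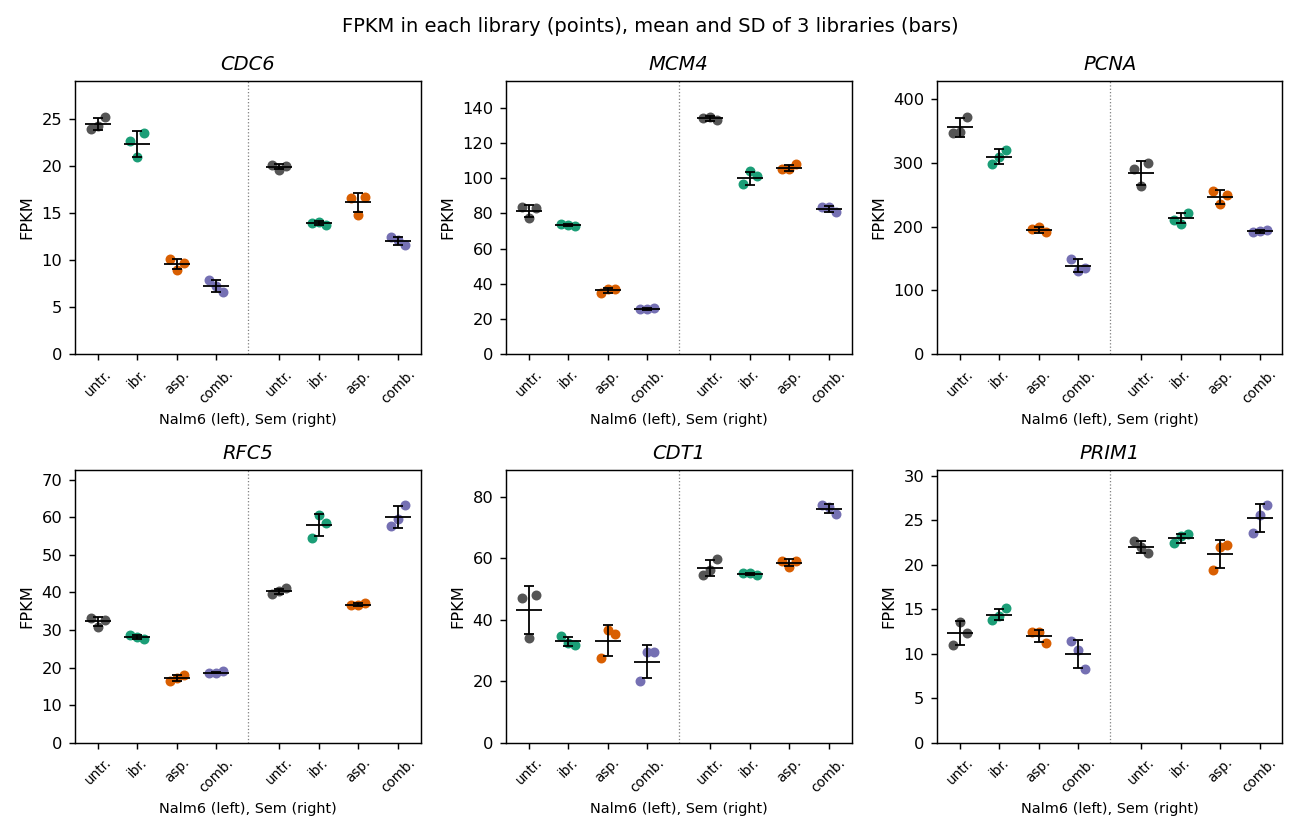
FPKM of CDC6, MCM4, PCNA, RFC5, CDT1 and PRIM1 in every library of the 8 groups (points), with the mean and SD of the 3 libraries. CDC6, MCM4 and PCNA step down from untreated to the combination in Nalm6, whereas the RFC5 libraries treated with ibrutinib or the combination in Sem lie between 54.6 and 63.2 FPKM, above the untreated range of 39.6 to 41.1.

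The origin recognition complex marks the sites where replication can start. All 5 of its members fell in Nalm6 with the combination, with the smallest median change among the role groups (-0.47), and 3 of 5 fell in Sem (median -0.22). ORC1 is the ATPase subunit whose abundance varies through the cell cycle. ORC1 FPKM in Nalm6 was 30.1, 29.1 and 28.1 in the untreated libraries, 25.5, 26.8 and 27 with ibrutinib, 12.5, 13.1 and 11.9 with asparaginase and 9.76, 11.1 and 10.1 with the combination. In Sem, ORC1 FPKM was 21.2, 23.8 and 23.3 in the untreated libraries, 17.4, 20 and 19.6 with ibrutinib, 20, 18 and 19.8 with asparaginase and 18.7, 18.4 and 18.7 with the combination. The asparaginase and combination libraries did not overlap the untreated ones in either line, and the combination lay below asparaginase in Nalm6 only. The combination changed ORC1 by -1.41 ± 0.06 in Nalm6 (limma adjusted p = 5.31e-09) and by -0.28 ± 0.06 in Sem (limma adjusted p = 0.00259).

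ORC6, the smallest subunit, was the member of the complex with the largest change in Sem. ORC6 FPKM in Nalm6 was 21.3, 22.9 and 22.4 in the untreated libraries, 21, 20.9 and 20.2 with ibrutinib, 11.8, 11.7 and 13 with asparaginase and 10.7, 10 and 9.92 with the combination. In Sem, ORC6 FPKM was 31.1, 26.3 and 30.1 in the untreated libraries, 25.4, 23.4 and 26.2 with ibrutinib, 26.2, 25.2 and 25.4 with asparaginase and 23.5, 20.7 and 21.2 with the combination. In Nalm6 every asparaginase library lay below every untreated one and every combination library below every asparaginase one. With the combination ORC6 changed by -1.05 ± 0.05 in Nalm6 (limma adjusted p = 2.14e-08) and by -0.40 ± 0.07 in Sem (limma adjusted p = 0.000397). ORC3, a core subunit of the complex, moved least. ORC3 FPKM in Nalm6 was 11.9, 12.2 and 12 in the untreated libraries, 13.1, 14.1 and 13.7 with ibrutinib, 10.2, 9.27 and 10.1 with asparaginase and 11.1, 10 and 11 with the combination. In Sem, ORC3 FPKM was 11.1, 11.5 and 10.9 in the untreated libraries, 9.86, 11.7 and 11.4 with ibrutinib, 10.7, 10.4 and 10.9 with asparaginase and 10.9, 10.7 and 9.69 with the combination. Nalm6 levels were highest with ibrutinib, and in Sem the ibrutinib and combination libraries overlapped the untreated ones. Its log2 change with the combination was -0.16 ± 0.05 in Nalm6 (limma adjusted p = 0.0233), which became 0.0021 with TPM scaling, and -0.09 ± 0.06 in Sem, which did not pass (limma adjusted p = 0.245). For the Nalm6 value the call ended in 4 of 8 alternatives (highest limma adjusted p = 0.977) and in 3 of 12 fits with a library left out (highest 0.0988), those without untreated 2, untreated 3 or combination 2. ORC2 and ORC5, the remaining members, went from 12.4 ± 0.78 to 8.83 ± 0.905 FPKM and from 9.54 ± 0.161 to 6.63 ± 0.621 FPKM with the combination in Nalm6. ORC2 and ORC5 in Sem stood at 11 ± 1.4 and 9.24 ± 0.209 FPKM untreated and 10.3 ± 0.331 and 7.76 ± 0.152 FPKM with the combination. ORC2 did not pass there.

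The loading factors include the gene with the lowest percentage of its untreated level in Nalm6 and a member that rose in Sem. CDC6 is the ATPase that joins the origin complex to load the helicase. CDC6 FPKM in Nalm6 was 23.9, 24.2 and 25.2 in the untreated libraries, 22.6, 20.9 and 23.5 with ibrutinib, 10.1, 8.92 and 9.68 with asparaginase and 7.83, 7.19 and 6.57 with the combination. In Sem, CDC6 FPKM was 20.1, 19.5 and 20 in the untreated libraries, 13.9, 14 and 13.7 with ibrutinib, 16.6, 14.8 and 16.7 with asparaginase and 12.4, 12.1 and 11.6 with the combination. In both lines the combination libraries were the lowest, with no overlap with any other group of the line, and asparaginase was lower than ibrutinib in Nalm6 and higher than ibrutinib in Sem. With the combination CDC6 fell by 1.64 ± 0.07 on the log2 scale in Nalm6 (limma adjusted p = 6.2e-09) and by 0.68 ± 0.05 in Sem (limma adjusted p = 4.86e-07). The difference from asparaginase alone was -0.37 ± 0.07 in Nalm6 (limma adjusted p = 0.0029) and -0.39 ± 0.05 in Sem (limma adjusted p = 6.28e-05).

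CDT1, the other loading factor, is destroyed in S phase and held in check by geminin. CDT1 FPKM in Nalm6 was 47, 34.1 and 48.1 in the untreated libraries, 34.7, 32.5 and 31.8 with ibrutinib, 27.4, 36.8 and 35.5 with asparaginase and 20.1, 29.5 and 29.5 with the combination. In Sem, CDT1 FPKM was 54.7, 56.1 and 59.7 in the untreated libraries, 55.1, 55.1 and 54.6 with ibrutinib, 59.1, 57.2 and 59.2 with asparaginase and 77.2, 76.6 and 74.3 with the combination. All 3 Sem combination libraries stood above the other 9 Sem libraries, and in Nalm6 the second untreated, first asparaginase and first combination libraries were the low ones of their groups. CDT1 rose with the combination in Sem by 0.42 ± 0.04 (limma adjusted p = 2.88e-06) and fell in Nalm6 by 0.69 ± 0.17 (limma adjusted p = 0.00389, a call that quantile scaling ended). The transcript of CDT1 has a GC content of 64.9%. In those 3 Nalm6 libraries the slope of log2 expression on GC per 10 points was -0.049, -0.03 and -0.1. It was 0.035 to 0.069 in the other libraries of their groups, and -0.028, -0.029 and -0.055 in the Nalm6 ibrutinib libraries. In Sem it was -0.022, -0.045 and -0.024 with ibrutinib and 0.049, 0.0071 and 0.0047 untreated. The part of this slope in the CDT1 values was not tested. Neither drug alone passed for CDT1 in Sem on the FPKM scale, whereas with quantile scaling both passed as higher (ibrutinib 0.12, limma adjusted p = 0.0163) and with TPM scaling asparaginase did. On the FPKM scale the change with the combination exceeded the sum of the single drug changes by 0.42 ± 0.05 (limma adjusted p = 0.00218), the only such interaction among the members in Sem, where 0.775% and 0.76% of all genes had a lower and a higher one. GMNN, encoding geminin, fell from 43.7 ± 3.23 to 19.5 ± 1.88 FPKM in Nalm6 and from 43.5 ± 3.08 to 32 ± 0.601 FPKM in Sem. The ratio of CDT1 to GMNN in Sem went from 1.31 ± 0.0883 untreated to 1.57 ± 0.0752 with ibrutinib, 1.57 ± 0.0935 with asparaginase and 2.38 ± 0.0574 with the combination.

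The 6 genes of the MCM helicase are the motor of the fork, and all 6 fell with the combination in both lines, with medians of -1.18 in Nalm6 and -0.47 in Sem. MCM4 had the largest change of the 6 in both lines. MCM4 FPKM in Nalm6 was 83.7, 77.5 and 83.2 in the untreated libraries, 73.9, 73.4 and 72.6 with ibrutinib, 34.5, 37.1 and 37.2 with asparaginase and 25.4, 25.5 and 26 with the combination. In Sem, MCM4 FPKM was 134, 135 and 133 in the untreated libraries, 96.5, 104 and 101 with ibrutinib, 105, 105 and 108 with asparaginase and 83.9, 83.4 and 80.6 with the combination. The combination libraries were lowest and did not overlap any other group of their line. The combination changed MCM4 by -1.63 ± 0.04 in Nalm6 (limma adjusted p = 6.72e-10) and by -0.69 ± 0.03 in Sem (limma adjusted p = 5.57e-08). MCM3 is the MCM subunit with the smallest change in Nalm6. MCM3 FPKM in Nalm6 was 162, 154 and 157 in the untreated libraries, 152, 149 and 151 with ibrutinib, 112, 110 and 108 with asparaginase and 82.6, 82.9 and 81.2 with the combination. In Sem, MCM3 FPKM was 142, 145 and 145 in the untreated libraries, 106, 110 and 114 with ibrutinib, 137, 137 and 141 with asparaginase and 100, 105 and 99.5 with the combination. In Sem the ibrutinib and combination libraries were low, while asparaginase stayed near untreated. MCM3 fell by 0.93 ± 0.04 with the combination in Nalm6 (limma adjusted p = 4.84e-09) and by 0.50 ± 0.03 in Sem (limma adjusted p = 4.92e-07). With asparaginase in Sem it gave -0.06 ± 0.03 (limma adjusted p = 0.229), a direction that turned to 0.10 with quantile scaling (limma adjusted p = 0.0468).

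MCM6, another ring subunit, has 4 matches to the E2F-type letters in its window, which overlap in pairs. MCM6 FPKM in Nalm6 was 104, 107 and 105 in the untreated libraries, 105, 104 and 106 with ibrutinib, 61.2, 61.4 and 59.2 with asparaginase and 45.5, 44.4 and 44.1 with the combination. In Sem, MCM6 FPKM was 74.5, 76.5 and 79.5 in the untreated libraries, 61.9, 61.3 and 64.2 with ibrutinib, 73.8, 67.4 and 75.7 with asparaginase and 59.2, 57 and 58.1 with the combination. In Nalm6 the ibrutinib libraries overlapped untreated ones, and the combination libraries lay below all others. With the combination MCM6 fell by 1.22 ± 0.03 in Nalm6 (limma adjusted p = 8.22e-10) and by 0.40 ± 0.04 in Sem (limma adjusted p = 2.24e-05), the smallest change of the 6 there. MCM2, MCM5 and MCM7 went from 91.8 ± 5.46, 37.1 ± 2.4 and 168 ± 7.12 FPKM to 41.4 ± 5.39, 17.2 ± 2.16 and 67.6 ± 2.64 FPKM with the combination in Nalm6. MCM2, MCM5 and MCM7 in Sem stood at 112 ± 2.08, 47.5 ± 2.48 and 209 ± 1.89 FPKM untreated and 82.4 ± 0.723, 29.5 ± 1.23 and 154 ± 2.59 FPKM with the combination. The 6 subunits did not fall in equal proportion. As a share of the summed FPKM of MCM2 to MCM7 in Nalm6, MCM4 went from 12.7 ± 0.153% untreated to 9.5 ± 0.328% with asparaginase and 9.2 ± 0.266% with the combination, and MCM3 from 24.6 ± 0.345% to 28.8 ± 0.693% and 29.5 ± 1.11%. In Sem the MCM4 share went from 18.5 ± 0.203% to 16.3 ± 0.328% with the combination.

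**Figure D3:**
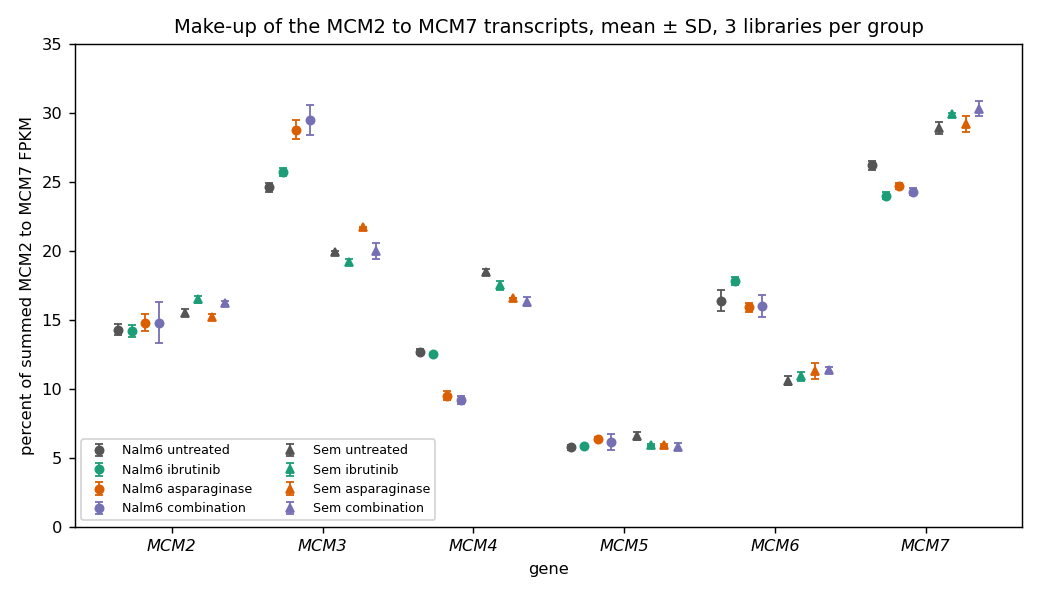
Share of each MCM subunit in the summed FPKM of MCM2 to MCM7 (vertical axis, percent; points are means of 3 libraries, circles for Nalm6 and triangles for Sem, and error bars the SD) in the 8 groups. In Nalm6 the MCM4 share is lower and the MCM3 share higher with asparaginase and with the combination than in untreated cells.

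The factors that turn the loaded ring into an active helicase fell as a group: 8 of 8 passed in Nalm6 with the combination (median -0.99) and 8 of 8 in Sem (median -0.46). CDC45 binds the MCM ring as part of the active helicase. CDC45 FPKM in Nalm6 was 34.9, 33.4 and 37.3 in the untreated libraries, 29.2, 28.8 and 27.8 with ibrutinib, 15.7, 17.7 and 17.8 with asparaginase and 10.2, 11.8 and 13.1 with the combination. In Sem, CDC45 FPKM was 30.5, 34 and 33.6 in the untreated libraries, 22.7, 22.3 and 21.3 with ibrutinib, 26.4, 24.1 and 26.4 with asparaginase and 19.1, 19.8 and 19.5 with the combination. The groups did not overlap in either line, with the combination lowest in both, asparaginase below ibrutinib in Nalm6 and ibrutinib below asparaginase in Sem. CDC45 changed with the combination by -1.51 ± 0.08 in Nalm6 (limma adjusted p = 4.15e-08) and by -0.72 ± 0.05 in Sem (limma adjusted p = 6.16e-07), the largest fall of the group in each line. CDC7, the kinase that phosphorylates the MCM ring, moved least of the group. CDC7 FPKM in Nalm6 was 16, 20 and 16.7 in the untreated libraries, 18.3, 18 and 19 with ibrutinib, 15.4, 14.6 and 14.7 with asparaginase and 13.1, 11.5 and 11.9 with the combination. In Sem, CDC7 FPKM was 19.6, 17.9 and 19.1 in the untreated libraries, 17.5, 17 and 16.9 with ibrutinib, 16.6, 14.6 and 14.6 with asparaginase and 17.2, 16.4 and 16 with the combination. Combination libraries lay below every other group in Nalm6, and in Sem they overlapped those of both single drugs. Its change with the combination was -0.49 ± 0.08 in Nalm6 (limma adjusted p = 0.000166) and -0.18 ± 0.05 in Sem (limma adjusted p = 0.0144). In Sem the call ended in 3 of 8 alternatives (highest limma adjusted p = 0.236) and in 2 of 12 fits with a library left out (highest 0.0544), those without untreated 1 or combination 3.

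GINS2 was far higher in Sem than in Nalm6 before treatment. GINS2 FPKM in Nalm6 was 15.5, 16 and 16.9 in the untreated libraries, 16.6, 17.4 and 17.6 with ibrutinib, 8.86, 9.33 and 8.32 with asparaginase and 5.73, 5.32 and 5.84 with the combination. In Sem, GINS2 FPKM was 44, 42.4 and 46.6 in the untreated libraries, 35.8, 39.6 and 37.8 with ibrutinib, 31.7, 32.3 and 34.4 with asparaginase and 33.2, 32.8 and 30.9 with the combination. In Nalm6 the ibrutinib libraries overlapped the untreated ones, and asparaginase and then the combination were lower without overlap, while in Sem the asparaginase and combination libraries overlapped. GINS2 fell with the combination by 1.37 ± 0.05 in Nalm6 (limma adjusted p = 5.39e-09) and by 0.44 ± 0.05 in Sem (limma adjusted p = 2.52e-05). GINS1, GINS3 and GINS4 fell from 33.4 ± 1.26, 12.7 ± 0.61 and 16.3 ± 0.146 FPKM to 17.1 ± 0.393, 5.56 ± 0.0034 and 8.12 ± 0.426 FPKM in Nalm6. GINS1, GINS3 and GINS4 in Sem stood at 33 ± 1.56, 13.9 ± 0.156 and 21.7 ± 0.881 FPKM untreated and 24 ± 1.56, 9.74 ± 0.266 and 16.6 ± 0.505 FPKM with the combination. MCM10, a scaffold for helicase activation, fell from 30.4 ± 0.527 to 11.8 ± 0.706 FPKM, and DBF4, the partner of CDC7, from 22.4 ± 1.88 to 12.9 ± 1.16 FPKM. In Sem, MCM10 fell from 23.9 ± 1.07 to 14.4 ± 0.986 FPKM and DBF4 from 18.2 ± 1.11 to 12.1 ± 0.312 FPKM.

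Primase lays the RNA primer that polymerase alpha extends. With the combination all 4 genes of this complex fell in Nalm6 (median -0.60), and in Sem 2 fell and PRIM1 rose (median -0.28). POLA1 is the catalytic subunit of polymerase alpha. POLA1 FPKM in Nalm6 was 21, 21.7 and 20.2 in the untreated libraries, 18.5, 18.1 and 17 with ibrutinib, 14.2, 12.4 and 12.9 with asparaginase and 9.71, 8.22 and 9.21 with the combination. In Sem, POLA1 FPKM was 18.4, 22.4 and 20.1 in the untreated libraries, 14.8, 18.4 and 17.1 with ibrutinib, 18.8, 19.4 and 20.5 with asparaginase and 15.1, 15.1 and 14.9 with the combination. The Nalm6 groups were ordered without overlap, and in Sem asparaginase overlapped untreated. POLA1 fell with the combination by 1.13 ± 0.07 in Nalm6 (limma adjusted p = 8.28e-08) and by 0.40 ± 0.08 in Sem (limma adjusted p = 0.00116). POLA2 is the accessory subunit. POLA2 FPKM in Nalm6 was 3.12, 2.73 and 3.28 in the untreated libraries, 2.79, 2.9 and 3.01 with ibrutinib, 2.05, 2.53 and 2.67 with asparaginase and 1.48, 1.89 and 1.97 with the combination. In Sem, POLA2 FPKM was 3.31, 2.68 and 3.24 in the untreated libraries, 2.73, 2.7 and 3.07 with ibrutinib, 2.73, 3.32 and 3.07 with asparaginase and 2.65, 2.65 and 2.68 with the combination. In Sem each treatment overlapped the untreated libraries, and at these levels log2(FPKM + 1) understates a change. The change with the combination was -0.54 ± 0.09 in Nalm6 (limma adjusted p = 0.000417) and -0.15 ± 0.08 in Sem, which did not pass (limma adjusted p = 0.123) except without untreated 2, at -0.23, with quantile scaling or without the libraries that stood apart.

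PRIM1, the catalytic primase subunit, differed from its partner PRIM2. PRIM1 FPKM in Nalm6 was 11, 13.6 and 12.3 in the untreated libraries, 13.8, 14.3 and 15.1 with ibrutinib, 12.4, 12.5 and 11.2 with asparaginase and 11.4, 10.4 and 8.31 with the combination. In Sem, PRIM1 FPKM was 22.7, 22 and 21.3 in the untreated libraries, 22.5, 23.2 and 23.5 with ibrutinib, 19.4, 22 and 22.2 with asparaginase and 23.6, 25.6 and 26.7 with the combination. Sem combination libraries lay above the Sem untreated ones without overlap, and in Nalm6 the combination libraries overlapped the untreated ones. PRIM1 rose with the combination in Sem by 0.19 ± 0.06 (limma adjusted p = 0.0153), a call that ended without untreated 3 or without combination 3 (highest limma adjusted p = 0.0645), and fell in Nalm6 by 0.27 ± 0.10 (limma adjusted p = 0.0362). For the fall in Nalm6 the call ended in 4 of 8 alternatives (highest limma adjusted p = 0.319) and in 4 of 12 fits with a library left out (highest 0.144), those without untreated 2, untreated 3, combination 2 or combination 3. PRIM2 is the large primase subunit. PRIM2 FPKM in Nalm6 was 9.91, 10.1 and 10.1 in the untreated libraries, 8.86, 9.09 and 9.98 with ibrutinib, 5.67, 6.13 and 5.58 with asparaginase and 6.5, 6.17 and 5.31 with the combination. In Sem, PRIM2 FPKM was 9.96, 9.12 and 9.46 in the untreated libraries, 7.85, 8.63 and 8.64 with ibrutinib, 7.17, 6.79 and 7.6 with asparaginase and 6.78, 7.17 and 6.58 with the combination. The combination libraries lay below the untreated ones in both lines. PRIM2 fell with the combination by 0.66 ± 0.07 in Nalm6 (limma adjusted p = 7.53e-06) and by 0.42 ± 0.05 in Sem (limma adjusted p = 6.18e-05). The ratio of PRIM1 to PRIM2 in Sem went from 2.32 ± 0.0842 untreated to 3.7 ± 0.311 with the combination. In Nalm6 this ratio rose as well, from 1.22 ± 0.12 untreated to 1.55 ± 0.0325 with ibrutinib, 2.08 ± 0.0962 with asparaginase and 1.67 ± 0.097 with the combination. PRIM1 shares sequence positions with NACA on the same strand, and NACA changed by 0.09 in Sem (limma adjusted p = 0.0859) and by -0.39 in Nalm6 with the combination.

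Polymerases delta and epsilon copy the lagging and the leading strand, and all 5 of the genes measured fell with the combination in both lines. POLD1 is the catalytic subunit of polymerase delta. POLD1 FPKM in Nalm6 was 49.2, 40.1 and 48 in the untreated libraries, 37.8, 37.1 and 34 with ibrutinib, 28, 30.7 and 32 with asparaginase and 17.8, 23.4 and 23.5 with the combination. In Sem, POLD1 FPKM was 44.6, 42.8 and 41.9 in the untreated libraries, 35.4, 37.6 and 35.6 with ibrutinib, 38, 40.5 and 37.7 with asparaginase and 33.6, 31.7 and 32.6 with the combination. In both lines the combination libraries lay below those of every other group. POLD1 fell by 1.06 ± 0.11 in Nalm6 (limma adjusted p = 7.58e-06) and by 0.39 ± 0.04 in Sem (limma adjusted p = 1.31e-05). Its transcript has a GC content of 65%, close to that of CDT1. The 3 Nalm6 libraries that stood apart from their groups by the GC slope were again the low ones of their groups. POLD3, an accessory subunit, had the smallest change of the delta subunits in each line. POLD3 FPKM in Nalm6 was 16.9, 17 and 16.2 in the untreated libraries, 16.2, 16.5 and 16.8 with ibrutinib, 14.1, 12.4 and 13.1 with asparaginase and 11.6, 10.1 and 9.31 with the combination. In Sem, POLD3 FPKM was 15.7, 16.7 and 16.4 in the untreated libraries, 12.9, 14.3 and 13.8 with ibrutinib, 16.4, 15.8 and 15.5 with asparaginase and 13.9, 14.3 and 14.1 with the combination. Combination and ibrutinib overlapped in Sem and did not overlap in Nalm6. Its change was -0.65 ± 0.07 in Nalm6 (limma adjusted p = 1.2e-05) and -0.19 ± 0.04 in Sem (limma adjusted p = 0.00259), where TPM scaling ended the call. POLD2, the subunit that holds the complex together, had the largest change of the delta subunits in Sem. POLD2 FPKM in Nalm6 was 39.6, 34.3 and 39.1 in the untreated libraries, 32.8, 31.5 and 32.5 with ibrutinib, 25.2, 26.3 and 27.4 with asparaginase and 17, 18.7 and 19.5 with the combination. In Sem, POLD2 FPKM was 24.6, 24.5 and 25.3 in the untreated libraries, 17.4, 19.6 and 19.5 with ibrutinib, 21.1, 22.3 and 22.4 with asparaginase and 17.1, 17.5 and 17.8 with the combination. All 3 treatments lay below untreated in both lines. The transcript of POLD2 has a GC content of 59.1%, and the same 3 Nalm6 libraries were the low ones of their groups. POLD2 fell by 0.99 ± 0.07 in Nalm6 (limma adjusted p = 2.18e-07) and by 0.48 ± 0.05 in Sem (limma adjusted p = 6.68e-06).

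POLE2 is the second subunit of polymerase epsilon. POLE2 FPKM in Nalm6 was 10.6, 11.4 and 11.1 in the untreated libraries, 11.8, 11.7 and 11 with ibrutinib, 5.7, 5.97 and 5.55 with asparaginase and 4.53, 4.24 and 4.74 with the combination. In Sem, POLE2 FPKM was 9.57, 10.8 and 12 in the untreated libraries, 9.56, 9.65 and 8.92 with ibrutinib, 9.02, 9.04 and 9.42 with asparaginase and 8.37, 9.09 and 9.36 with the combination. In Nalm6 ibrutinib overlapped untreated, and asparaginase and the combination were lower without overlap. POLE2 fell by 1.13 ± 0.05 in Nalm6 (limma adjusted p = 1.5e-08) and by 0.24 ± 0.07 in Sem (limma adjusted p = 0.0122). POLE, the catalytic subunit, fell less. POLE FPKM in Nalm6 was 16.3, 14.5 and 14.9 in the untreated libraries, 14.5, 14.7 and 13.1 with ibrutinib, 12.1, 12.8 and 13.3 with asparaginase and 7.88, 9.66 and 10.1 with the combination. In Sem, POLE FPKM was 12.8, 13.7 and 12.7 in the untreated libraries, 11.8, 12.1 and 12.1 with ibrutinib, 13.4, 14.4 and 13.5 with asparaginase and 12, 11.9 and 11.8 with the combination. In Sem the ibrutinib and combination libraries overlapped each other and lay below the untreated and asparaginase ones. POLE changed by -0.67 ± 0.08 in Nalm6 (limma adjusted p = 3.26e-05) and by -0.12 ± 0.04 in Sem (limma adjusted p = 0.023). For POLE in Sem the call ended in 4 of 8 alternatives (highest limma adjusted p = 0.54) and in 3 of 12 fits with a library left out (highest 0.0829), those without untreated 2, combination 2 or combination 3, and for POLE2 in Sem the call ended in 1 of 8 alternatives (highest limma adjusted p = 0.064) and in 1 of 12 fits with a library left out (highest 0.0513), that without combination 1.

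The PCNA clamp tethers the polymerases to DNA and the 5-subunit RFC complex opens it. All 6 genes fell with the combination in Nalm6 (median -0.98), and in Sem 5 fell and RFC5 rose (median -0.45). PCNA was the most abundant of the 42 genes in every group. PCNA FPKM in Nalm6 was 347, 349 and 373 in the untreated libraries, 298, 310 and 321 with ibrutinib, 196, 199 and 191 with asparaginase and 150, 131 and 135 with the combination. In Sem, PCNA FPKM was 290, 264 and 300 in the untreated libraries, 211, 205 and 221 with ibrutinib, 256, 235 and 250 with asparaginase and 191, 194 and 195 with the combination. The combination libraries were lowest in both lines and overlapped no other group. The combination changed PCNA by -1.36 ± 0.06 in Nalm6 (limma adjusted p = 8.48e-09) and by -0.55 ± 0.05 in Sem (limma adjusted p = 5.34e-06). RFC5 (chr12:118013588-118033130, plus strand of GRCh38, in the deposited annotation) is a small subunit of the loader. RFC5 FPKM in Nalm6 was 33.3, 30.9 and 32.8 in the untreated libraries, 28.8, 28.1 and 27.7 with ibrutinib, 16.4, 17.2 and 18.1 with asparaginase and 18.5, 18.5 and 19 with the combination. In Sem, RFC5 FPKM was 39.6, 40.3 and 41.1 in the untreated libraries, 54.6, 60.5 and 58.4 with ibrutinib, 36.7, 36.6 and 37.2 with asparaginase and 57.6, 59.6 and 63.2 with the combination. The ibrutinib and combination libraries of Sem lay above all 6 others of that line, and in Nalm6 all treated libraries lay below all untreated ones. In Sem, RFC5 rose by 0.51 ± 0.04 with ibrutinib (limma adjusted p = 7.02e-06) and by 0.56 ± 0.04 with the combination (limma adjusted p = 1.34e-06), while with asparaginase it fell by 0.13 ± 0.04 (limma adjusted p = 0.0498). In Nalm6 it fell by 0.19 ± 0.05 with ibrutinib (limma adjusted p = 0.023), by 0.87 ± 0.05 with asparaginase (limma adjusted p = 9.36e-08) and by 0.76 ± 0.05 with the combination (limma adjusted p = 1.09e-07).

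Both rises of RFC5 in Sem held under every alternative processing and with each library left out, at 0.48 to 0.67 with ibrutinib and 0.56 to 0.78 with the combination over the alternatives, and at 0.48 to 0.55 and 0.53 to 0.59 with a library left out. The ratio of RFC5 to RFC4 in Sem was 1.28 ± 0.0885 untreated, 2.16 ± 0.136 with ibrutinib, 1.23 ± 0.0459 with asparaginase and 2.33 ± 0.146 with the combination. In Nalm6 it was 1.21 ± 0.212, 0.933 ± 0.0446, 0.854 ± 0.133 and 1.18 ± 0.0846. RFC5 overlaps WSB2 on the opposite strand, strandedness of the counts was not given in the sources used here, and a named pseudogene, RFC5P1, exists. WSB2 changed by 0.13 with ibrutinib in Sem (limma adjusted p = 0.15), 0.43 with the combination in Sem and 0.46 with the combination in Nalm6, where RFC5 fell. Of the smaller RFC5 changes, for the fall with asparaginase in Sem the call ended in 6 of 8 alternatives (highest limma adjusted p = 0.762) and in 8 of 12 fits with a library left out (highest 0.136), among them those without any 1 of the untreated or asparaginase libraries. For the fall with ibrutinib in Nalm6 the call ended in 4 of 8 alternatives (highest limma adjusted p = 0.365) and in 5 of 12 fits with a library left out (highest 0.087), those without untreated 1, untreated 3 or any 1 of the ibrutinib libraries.

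RFC3 had the largest change of the loader subunits in Nalm6. RFC3 FPKM in Nalm6 was 40.2, 39.5 and 40.3 in the untreated libraries, 34.8, 35.3 and 35.6 with ibrutinib, 20.3, 18.3 and 17.3 with asparaginase and 17, 13 and 13.7 with the combination. In Sem, RFC3 FPKM was 47.3, 42.3 and 49.4 in the untreated libraries, 39.8, 38.7 and 39.5 with ibrutinib, 39.6, 35.6 and 38 with asparaginase and 29.7, 30.8 and 29 with the combination. The combination libraries were lowest in both lines. RFC3 fell with the combination by 1.41 ± 0.09 in Nalm6 (limma adjusted p = 1.14e-07) and by 0.62 ± 0.06 in Sem (limma adjusted p = 4.32e-06). RFC2 is another small subunit and had the largest change of this set in Sem. RFC2 FPKM in Nalm6 was 45.6, 51.2 and 49.2 in the untreated libraries, 46.1, 43.4 and 46.8 with ibrutinib, 30.7, 29 and 29.8 with asparaginase and 21.5, 19.3 and 21.3 with the combination. In Sem, RFC2 FPKM was 63.6, 63.7 and 68.5 in the untreated libraries, 45, 43.4 and 46 with ibrutinib, 50.5, 46.5 and 52.3 with asparaginase and 41.2, 40.2 and 40.4 with the combination. All 3 treatments of Sem lay below untreated, with the combination lowest. RFC2 fell with the combination by 1.20 ± 0.06 in Nalm6 (limma adjusted p = 2.02e-08) and by 0.67 ± 0.05 in Sem (limma adjusted p = 6.38e-07). RFC1, the large subunit, changed least in Nalm6. RFC1 FPKM in Nalm6 was 27.4, 30.1 and 28.5 in the untreated libraries, 27.8, 27.8 and 28.4 with ibrutinib, 23.4, 20.7 and 20.6 with asparaginase and 20.8, 17.3 and 17.1 with the combination. In Sem, RFC1 FPKM was 25.6, 28.2 and 27.5 in the untreated libraries, 23.9, 24.7 and 23.2 with ibrutinib, 25.4, 24.3 and 26.3 with asparaginase and 20.7, 21.2 and 21 with the combination. The combination libraries lay below the untreated ones in both lines. RFC1 fell by 0.62 ± 0.07 in Nalm6 (limma adjusted p = 2.76e-05) and by 0.36 ± 0.04 in Sem (limma adjusted p = 3.72e-05).

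RFC4, the subunit set beside RFC5 above, had the smallest change of the clamp and loader genes in Sem. RFC4 FPKM in Nalm6 was 23.9, 31.6 and 25.9 in the untreated libraries, 29.3, 31.3 and 30.2 with ibrutinib, 22.4, 20.7 and 18.2 with asparaginase and 17, 15.2 and 15.2 with the combination. In Sem, RFC4 FPKM was 31.9, 29.2 and 33.9 in the untreated libraries, 26.9, 26.3 and 27.4 with ibrutinib, 29.2, 29.1 and 31.7 with asparaginase and 24.9, 27.2 and 25.4 with the combination. The untreated Nalm6 libraries spread widely, with the second the highest, and overlapped those with ibrutinib, and the combination lay below asparaginase there. RFC4 fell with the combination by 0.74 ± 0.10 in Nalm6 (limma adjusted p = 5.89e-05) and by 0.28 ± 0.06 in Sem (limma adjusted p = 0.00123), where quantile scaling ended the call.

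FEN1 and LIG1 finish the lagging strand by cutting the flap and sealing the nick, and both fell with the combination in both lines. FEN1 is the flap endonuclease. FEN1 FPKM in Nalm6 was 113, 125 and 121 in the untreated libraries, 96.7, 108 and 106 with ibrutinib, 50.1, 51.5 and 49.8 with asparaginase and 37.9, 37.1 and 38.3 with the combination. In Sem, FEN1 FPKM was 100, 92.2 and 94.8 in the untreated libraries, 65.5, 67 and 66.2 with ibrutinib, 72.8, 72.8 and 78.9 with asparaginase and 60.2, 59 and 58.7 with the combination. The groups of each line were ordered without overlap, with the combination lowest. FEN1 fell by 1.64 ± 0.05 with the combination in Nalm6 (limma adjusted p = 1.3e-09) and by 0.68 ± 0.04 in Sem (limma adjusted p = 2.17e-07). LIG1 is the ligase of the lagging strand. LIG1 FPKM in Nalm6 was 18, 16.9 and 16.5 in the untreated libraries, 16.6, 17.9 and 16.8 with ibrutinib, 14.6, 14.3 and 15 with asparaginase and 9.56, 10.8 and 11.2 with the combination. In Sem, LIG1 FPKM was 25.5, 26.3 and 25 in the untreated libraries, 22.5, 24.8 and 23.7 with ibrutinib, 21.6, 23 and 21 with asparaginase and 20.6, 20.9 and 20.1 with the combination. In Nalm6 the ibrutinib libraries overlapped the untreated ones and the combination lay clearly below asparaginase. LIG1 fell by 0.65 ± 0.06 in Nalm6 (limma adjusted p = 3e-06) and by 0.30 ± 0.04 in Sem (limma adjusted p = 0.000174). FEN1 overlaps FADS2, which changed by -0.97 in Nalm6 and -0.45 in Sem with the combination.

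RPA coats single-stranded DNA at the fork, and RPA1 and RPA2 fell in both lines, while RPA3 did not pass with the combination in either on all libraries. RPA2 is the subunit phosphorylated in the replication stress response. RPA2 FPKM in Nalm6 was 66.7, 72.4 and 69 in the untreated libraries, 61.3, 62.7 and 65.9 with ibrutinib, 39.1, 36.7 and 36.4 with asparaginase and 41.3, 37.8 and 40 with the combination. In Sem, RPA2 FPKM was 77.4, 73.3 and 76.4 in the untreated libraries, 64, 66.7 and 68.3 with ibrutinib, 60.2, 58 and 61.2 with asparaginase and 60.2, 58.6 and 60.9 with the combination. The asparaginase and combination libraries overlapped each other in both lines and lay below untreated. RPA2 fell with the combination by 0.79 ± 0.05 in Nalm6 (limma adjusted p = 1.82e-07) and by 0.33 ± 0.04 in Sem (limma adjusted p = 1.74e-05). RPA1 is the large DNA-binding subunit. RPA1 FPKM in Nalm6 was 56.6, 57.1 and 59.1 in the untreated libraries, 52.8, 54.2 and 55.5 with ibrutinib, 38.6, 40.3 and 39.4 with asparaginase and 36.6, 39.3 and 35.8 with the combination. In Sem, RPA1 FPKM was 55.2, 54.4 and 58.4 in the untreated libraries, 45.6, 47.3 and 47.8 with ibrutinib, 47, 45.8 and 47.1 with asparaginase and 41, 42.8 and 41.7 with the combination. In Sem the combination libraries lay below both single drugs. RPA1 fell with the combination by 0.62 ± 0.04 in Nalm6 (limma adjusted p = 4.11e-07) and by 0.41 ± 0.03 in Sem (limma adjusted p = 2.89e-06), the largest RPA change there. RPA3 is the smallest subunit. RPA3 FPKM in Nalm6 was 13.1, 18.1 and 14.6 in the untreated libraries, 15.9, 17.9 and 18.6 with ibrutinib, 14.9, 11.5 and 11.6 with asparaginase and 15.9, 11.3 and 11.8 with the combination. In Sem, RPA3 FPKM was 8.13, 7.51 and 7.71 in the untreated libraries, 6.43, 5.93 and 6.77 with ibrutinib, 7.67, 5.84 and 6.62 with asparaginase and 6.45, 7.48 and 7.45 with the combination. The asparaginase and combination libraries of Nalm6 overlapped the untreated ones, and RPA3 overlaps UMAD1 in the annotation. There the second untreated, first asparaginase and first combination libraries were the high ones of their groups. These libraries stood apart by the GC slope, and the RPA3 transcript has a GC content of 45.9%. The part of this slope in the RPA3 values was not tested. With the combination RPA3 changed by -0.22 ± 0.15 in Nalm6 (limma adjusted p = 0.205) and by -0.11 ± 0.08 in Sem (limma adjusted p = 0.284). In Nalm6 RPA3 passed at -0.37 without combination 1 and at -0.24 without the libraries that stood apart, so 1 library decided its call.

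Whether the combination changed a gene by more than the sum of the single drugs was tested as an interaction on the log2 scale. In Nalm6, 8 members fell further than that sum and 1, RFC5, fell less, beside 2.59% and 2.99% of all genes tested. The 8 were GINS2 (-0.65 ± 0.08), LIG1 (-0.44 ± 0.09), MCM6 (-0.43 ± 0.05), RFC2 (-0.41 ± 0.08), MCM3 (-0.35 ± 0.05), POLE2 (-0.35 ± 0.07), MCM4 (-0.34 ± 0.06) and GINS3 (-0.28 ± 0.07). GINS2, MCM6 and LIG1 had adjusted p values by limma of 0.000998, 0.000879 and 0.0143. GINS2 kept its call in every alternative and with each library left out, at -0.79 to -0.65 over the alternatives and -0.69 to -0.62 with a library left out. The count of 8 rose to 15 to 20 with TPM scaling, quantile scaling, weighted reads, GC and length correction and without the libraries that stood apart, and to 13 without combination 1. The RFC5 interaction of 0.30 ± 0.06 (limma adjusted p = 0.0233) was lost in the first 4 of these and in 6 of 12 fits with a library left out, those without untreated 1 or 3, ibrutinib 2 or 3, asparaginase 2 or combination 3 (highest limma adjusted p = 0.0636). For GINS3 the call ended in 3 of 8 alternatives (highest limma adjusted p = 0.0683) and in 11 of 12 fits with a library left out (highest 0.098), every library but combination 1, and for POLE2 the call ended in 0 of 8 alternatives (highest limma adjusted p = 0.0463) and in 3 of 12 fits with a library left out (highest 0.0587), those without ibrutinib 1, ibrutinib 2 or asparaginase 2. In Sem, 0 members had a lower interaction and CDT1 a higher one.

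**Figure D4:**
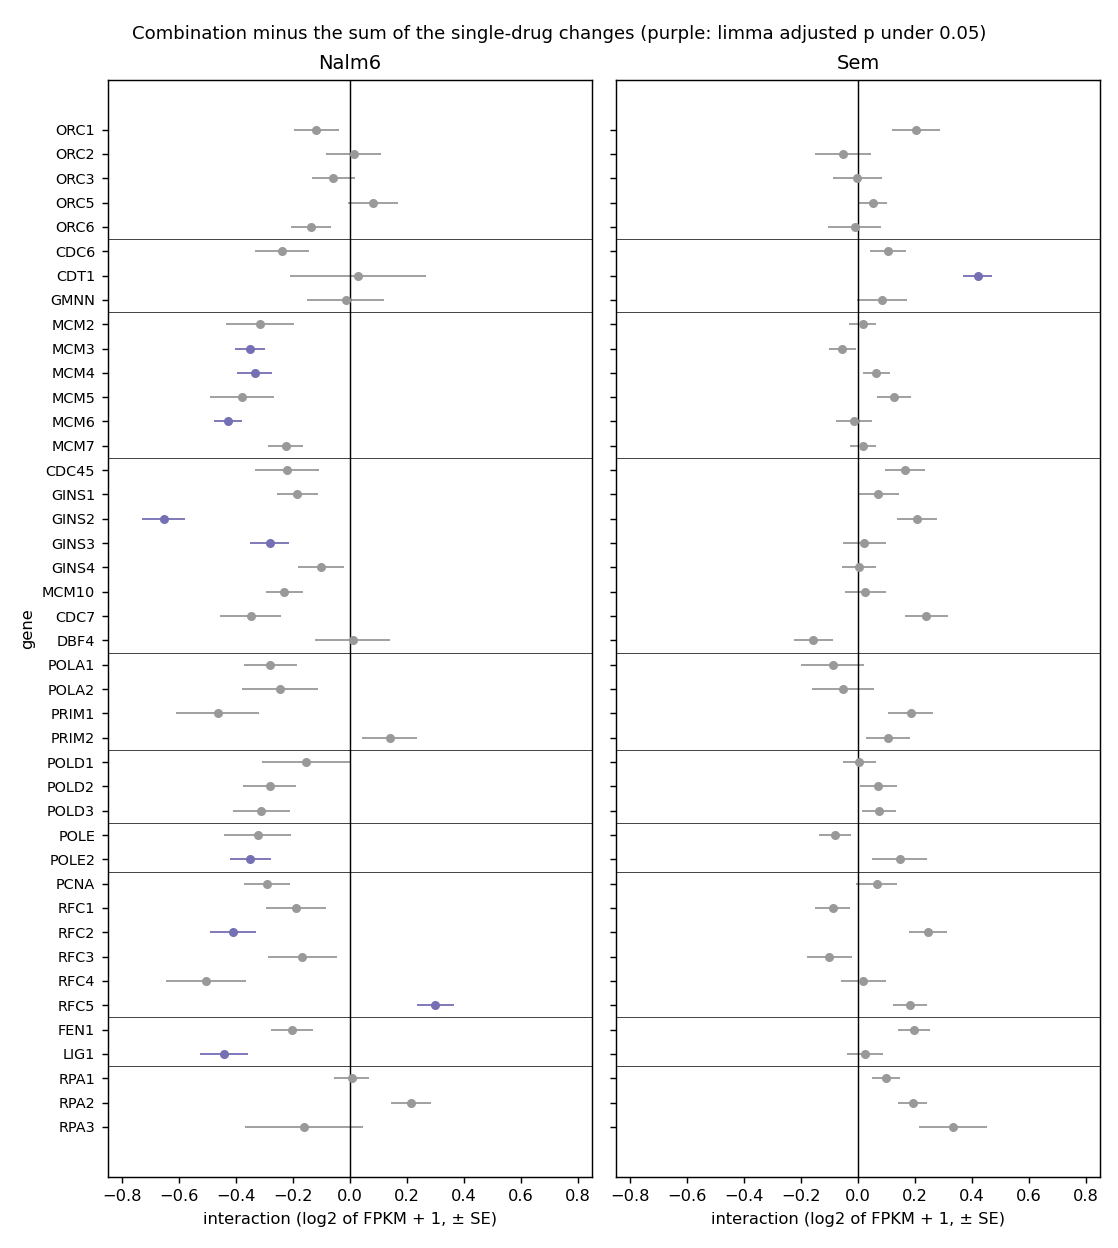
Interaction of the 2 drugs for each of the 42 genes in Nalm6 and in Sem (horizontal axis, log2 of FPKM + 1; bars are the SE), with genes of limma adjusted p under 0.05 in purple. In Nalm6 most genes lie below 0 and 8 lower ones and RFC5 pass, whereas in Sem CDT1 passes alone.

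The lines were then compared in 1 fit of all 24 libraries, as the Sem change minus the Nalm6 change. With asparaginase 35 members differed, all with the smaller fall or the rise in Sem, and with the combination 39 did, against 15.7% lower and 17.7% higher, and 18.6% lower and 22.2% higher, of the 15116 genes tested. ORC3, DBF4 and RPA3 did not pass with the combination, and DBF4 passed without Nalm6 combination 1, at 0.27, and without the libraries that stood apart, at 0.22. The Sem change lay above the Nalm6 change for 42 of 42 members with the combination. The median difference over the members was 0.45 with asparaginase and 0.55 with the combination, beside -0.01 and 0.02 over all genes. Differences were largest for RFC5 (1.32 ± 0.06, limma adjusted p = 4.73e-12), ORC1 (1.13 ± 0.08, limma adjusted p = 2.68e-09) and CDT1 (1.11 ± 0.18, limma adjusted p = 7.74e-05). With ibrutinib the change was lower in Sem than in Nalm6 for 12 members, and RFC5 differed the other way by 0.70 ± 0.06 (limma adjusted p = 1.32e-07), beside 6.09% and 7.56%. GINS2, MCM10 and RFC4, which are among the 12, did not fall with ibrutinib in Nalm6, at 0.09, 0.03 and 0.16. Among those 12, RFC2, MCM10 and RFC4 had the largest deficits, at -0.44 ± 0.07, -0.42 ± 0.07 and -0.39 ± 0.12.

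**Figure D5:**
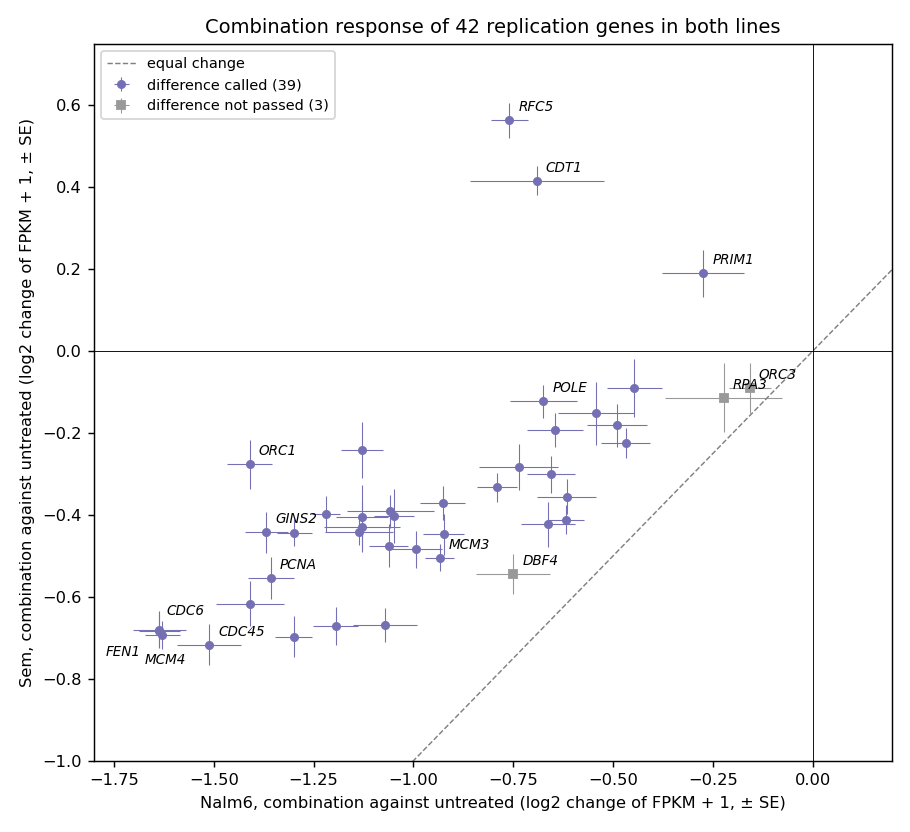
Log2 change with the combination in Sem (vertical axis) against Nalm6 (horizontal axis) for the 42 genes, with SE bars and a dashed line of equal change. All 42 points lie above the line, 39 of them with a difference of limma adjusted p under 0.05, and RFC5, CDT1 and PRIM1 lie above 0 in Sem.

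Most of the genes tested that work beside the 42 fell as well, by the same limma test. Of 30 tested accessory replisome genes, which include the fork protection factors, histone chaperones and clamp loader variants, 22 fell and 2 rose (median -0.76) with the combination in Nalm6, and 18 fell and 2 rose (median -0.18) in Sem, beside 31.3% lower and 32.4% higher of all genes tested in Nalm6 and 26.3% and 26.6% in Sem. The largest changes in Nalm6 were those of TIPIN, a fork protection partner of TIMELESS (-1.38 ± 0.10), DSCC1, a subunit of an alternative clamp loader (-1.32 ± 0.11), CLSPN, the checkpoint adaptor claspin (-1.30 ± 0.07), and the MCM binding protein MCMBP (-1.28 ± 0.05). In Sem they were those of SUPT16H, a subunit of the histone chaperone FACT (-0.64 ± 0.05), MCMBP (-0.62 ± 0.04), TIPIN (-0.58 ± 0.07) and CHAF1B, a subunit of chromatin assembly factor 1 (-0.51 ± 0.06). Of 10 genes of deoxynucleotide supply, 8 fell and 1 rose (median -0.86) in Nalm6 and 9 fell and 1 rose (median -0.48) in Sem, against the same shares of all genes. RRM1, the large subunit of ribonucleotide reductase, changed by -1.7 ± 0.05 in Nalm6, TYMS by -1.32 ± 0.04 and TK1 by -1.19 ± 0.09. In Sem the largest change was that of SAMHD1, a deoxynucleotide hydrolase, at -1.21 ± 0.03, followed by DTYMK (-0.70 ± 0.07), TK1 (-0.65 ± 0.05) and RRM1 (-0.55 ± 0.04). The single gene of this list that rose in each line, RRM2B, the p53-inducible reductase subunit, was picked out after its values were seen, at 0.41 ± 0.07 in Nalm6 and 0.31 ± 0.05 in Sem.

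Set beside the promoter windows, the 17 genes with an E2F-type match had a median log2 change with the combination of -1.13 in Nalm6 (range -1.64 to -0.16) and the 19 without one -0.76 (-1.64 to -0.27), ranges that overlap almost throughout. With asparaginase in Nalm6 the medians were -0.68 and -0.66, and with the combination in Sem -0.44 and -0.40. CDT1, with a match, rose in Sem, and so did RFC5 and PRIM1, whose windows hold no E2F-type match. Other forms of the E2F-type site were not searched, nor were other starts of the same gene.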

How the data were processed

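RNA was sequenced from 24 samples (8 groups of 3). The deposited table held FPKM per gene with gene length; reads were processed with fastp, STAR and featureCounts against hg38, per the submitters' processing notes, and the tool versions and strandedness are not given in the sources used here. In the file the authors deposited, values of 1 or more had lost their decimal point (299165 of 1409640, 21.223%), so the values as deposited are no usable unit. Each FPKM was restored to a power of 10 that gave whole reads with the gene length, and 0 had none. Where more than 1 power did, a prior chose, which favoured the smaller power, agreement of replicates and modest drug effects. Its log10 scales were 0.07 for replicates, 0.1 for ibrutinib, 0.13 for asparaginase and 0.08 for the interaction. The posterior is the probability of the chosen power under this prior, and the lowest of the members was 0.999994. On simulated damage, 99.8078% of 78053 values were restored. limma 3.58.1 (R 4.3.3, eBayes with trend) was then fitted to log2(FPKM + 1) for genes of at least 1 FPKM in at least 3 libraries, per line or over both, with Benjamini-Hochberg adjustment over all genes tested and a threshold of 0.05; the deposited file holds no counts, so the reads recovered this way were tested only in the voom alternative. On simulated data of the asparaginase comparison (12407 genes in Nalm6, 12832 in Sem), changes of 1.25-fold were called for 16% (Nalm6) and 28% (Sem) of changed genes, 1.5-fold for 86% and 66%, and 2-fold for 88% and 92%. Alternatives were a pseudocount of 0.1, no filter, TPM, quantile scaling, voom, GC and length correction (mgcv 1.9.3), the replicate block, each library left out, and leaving out together those that stood apart (Nalm6 untreated 2, asparaginase 1 and combination 1, Sem untreated 2 and ibrutinib 2). In untreated Sem libraries 1, 2 and 3 the GC slope per 10 points was 0.049, 0.0071 and 0.0047, so untreated 2 was not the one apart by it. In Sem ibrutinib libraries 1, 2 and 3 it was -0.022, -0.045 and -0.024. Members and lists were chosen with earlier results of these data known. By rule, values in every library are given for members with the largest and smallest change of each role group with the combination, and those whose direction differs; the rule also asked for members whose effect differs between lines, and since 39 did, the remaining ones are given as mean and SD, untreated and with the combination. Other lists name at most 4 genes each.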

Additional observations from a re-analysis of the deposited data

Results flagged for a closer look

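Effects of the same treatment differed between Nalm6 and Sem, by limma over 15116 genes with adjusted p under 0.05, for the counts of members given here. As the Sem change minus the Nalm6 change, 35 members were higher and 0 lower with asparaginase, and 39 were higher and 0 lower with the combination. With ibrutinib 1 was higher and 12 were lower. RFC5 differed by 0.70 with ibrutinib and by 1.32 with the combination, CDT1 by 1.11 with the combination and PRIM1 by 0.46 with the combination (log2 scale). These 3 genes rose with the combination in Sem and fell in Nalm6. The CDT1 call in Nalm6 ended with quantile scaling, and the PRIM1 calls in both lines ended in some fits with a library left out.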

How the results depend on the processing

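Limits are the 3 libraries per group, values rebuilt from damaged decimals, and genes that overlap neighbours (23 of 42 members) or have named pseudogenes (7). The alternatives were listed together with the tests. In member results, 4998 of 5376 values kept direction and call under the alternatives and 9720 of 10080 with a library left out; 5 reversed. With TPM scaling ORC3 in Nalm6 with the combination became 0.0021. With quantile scaling CDT1 (0.12) and RPA2 (0.022) with ibrutinib in Sem, MCM3 with asparaginase in Sem (0.10) and untreated RPA2 in Sem minus Nalm6 (-0.0071) reversed. The cause was not tested.

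TPM scaling raised the median log2 change of all genes by 0.17 in Nalm6 with asparaginase, 0.19 with the combination and 0.13 for the combination against ibrutinib. In Sem with the combination it raised that median by 0.11. Members lower were then 32, 39, 40 and 31.

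Counts of members that moved by over 1.5 times were these. Nalm6 with ibrutinib, lower 5: 3 without a filter, 1 with TPM, 0 with quantile scaling, 2 with weighted reads (voom), 10 with GC and length correction, 13 without the libraries that stood apart. Higher 0: 1 with TPM, 1 with voom, 3 without those libraries. Nalm6 combination against asparaginase, higher 0: 1 with quantile scaling. Nalm6 interaction, lower 8: 15 with TPM, 16 with quantile scaling, 20 with voom, 20 with GC and length correction, 18 without the libraries that stood apart. Higher 1: 0 with TPM, quantile scaling or voom, 2 without those libraries. Sem with ibrutinib, lower 33: 20 with quantile scaling. Higher 1: 2 with TPM, 3 with quantile scaling. Sem with asparaginase, lower 27: 15 with TPM or quantile scaling. Higher 0: 2 with TPM or quantile scaling, 1 with voom. Sem combination against asparaginase, higher 3: 5 with quantile scaling. Sem combination against ibrutinib, lower 18: 11 without the libraries that stood apart. Sem minus Nalm6 ibrutinib effect, higher 1: 2 without those libraries. Sem minus Nalm6 untreated, lower 11: 17 with voom.

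With each library left out, members lower ranged from 1 to 10 (Nalm6 ibrutinib), 36 to 40 (asparaginase), 39 to 42 (combination), 25 to 30 (combination against asparaginase), 40 to 41 (against ibrutinib) and 6 to 13 (interaction; higher 0 to 1). In Sem they ranged from 28 to 34 (higher 1 to 1), 18 to 26, 33 to 35 (higher 2 to 3), 26 to 28 (higher 3 to 4) and 9 to 19. For the difference between the lines they ranged from 9 to 15 lower with ibrutinib, 33 to 36 higher with asparaginase, 37 to 40 higher with the combination, and 10 to 12 lower and 12 to 16 higher untreated.

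To look for pairing, each gene's group mean was subtracted from log2(FPKM + 1), and the remainders were correlated between libraries of different treatments. For same-numbered libraries these remainders correlated at -0.18 to 0.34 in Nalm6 and -0.034 to 0.09 in Sem. Differently numbered ones gave -0.23 to 0.29 and -0.096 to 0.071. In Nalm6 6 of 12 libraries and in Sem 10 of 12 correlated best with their own number. The numbers may thus pair the Sem samples weakly, and the main fits did not use them. With the replicate block the members lower were 5, 38 and 41 in Nalm6 and 36, 28 and 35 in Sem, with ibrutinib, asparaginase and the combination, and no count moved by over 1.5 times.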

Other observations

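Of 18 regulators of S-phase entry, 14 fell and 2 rose (median -0.69) with the combination in Nalm6, and 12 fell and 2 rose (median -0.23) in Sem, by limma with adjusted p under 0.05. Of all genes tested, 31.3% were lower and 32.4% higher in Nalm6, and 26.3% and 26.6% in Sem. The largest changes in Nalm6 were those of the activating factor E2F2 (-1.61 ± 0.07 on the log2 scale), the phosphatase CDC25A (-1.48 ± 0.05), cyclin E2 (CCNE2, -1.38 ± 0.09) and the E2F partner TFDP1 (-1.06 ± 0.05). E2F2 stood at 68.7 ± 5.93 FPKM (SD, n = 3) untreated and 21.9 ± 1.77 FPKM with the combination in Nalm6, and at 31.8 ± 1.41 and 28.9 ± 0.749 FPKM in Sem. In Sem the largest change was a rise of TFDP2, another E2F partner (0.89 ± 0.06), from 2.48 ± 0.0874 FPKM untreated to 4.91 ± 0.27 FPKM with ibrutinib, 3 ± 0.126 FPKM with asparaginase and 5.47 ± 0.412 FPKM with the combination. CDC25A (-0.76 ± 0.04), cyclin A2 (CCNA2, -0.74 ± 0.04) and cyclin E1 (CCNE1, -0.69 ± 0.14) fell there.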
